A study of Mus musculus with 8 samples.

Results

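The genes described here copy DNA: 40 genes of DNA replication and S phase, among them the helicase subunits Mcm2 to Mcm7, the sliding clamp Pcna, the polymerase and primase subunits, the enzymes that make deoxynucleotides and the E cyclins. They were found on the arrays by gene name, leaving out control spots. All 40 were present, with 49 probes of 60 bases between them, and 39 could be tested among 19130 genes in all. The exception was Ccne2, a cyclin that drives entry into S phase, whose only probe was not well above background on any of the 8 arrays.

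The cells were early erythroid progenitors, which give rise to red blood cells, from the liver of C57BL/6 mouse fetuses at stage E14.5. Per the labels, mature blood cells and cells carrying Sca-1, CD16/32, CD41 or CD34 were removed, and c-kit-positive cells in the lowest 10% for CD71 were sorted. They were infected with a virus and cultured for 3 days. The 4 groups of 2 arrays each were shRNA1 with dexamethasone (DEX, a synthetic glucocorticoid), shRNA2 with DEX, control virus with DEX, and control virus without DEX. Both shRNAs were directed at an RNA-binding protein, named in the published study of this design as Zfp36l2. No group had an shRNA without DEX. Replicate 1 of every group lay on slide 1 and replicate 2 on slide 2, and the labels do not say whether replicates came from separate cultures or animals. The p-values therefore rest on array-to-array spread alone, part or all of which may be technical. Each array is a bulk measurement, in which fewer cells in S phase and less RNA per cell cannot be told apart.

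Replication starts where the origin recognition complex, with Cdc6 and Cdt1, loads the MCM helicase onto DNA before S phase begins. Mcm10 and the GINS complex then help to switch the helicase on, DNA polymerase alpha with primase lays down primers, and polymerases delta and epsilon extend them while held by the Pcna clamp, which the RFC complex loads. Many of these genes are transcribed in waves through the cell cycle under E2F factors, so their summed mRNA is often read as a measure of how many cells are cycling. Fetal erythroid progenitors divide rapidly before they mature, and glucocorticoids are known to prolong the progenitor stage.

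The promoters of the members were searched for E2F-type motifs, because many such genes are transcribed under E2F factors. RefSeq promoters (build GRCm38.p6, from 250 bases before to 50 bases after the start) matched 33 of the 40 members, with none for Mcm4, Gins1, Gins2, Prim2, Pole, Rfc2 and Ccne2. The motifs TTTCCCGC, TTTCGCGC, TTTGCCGC and TTTGGCGC were sought on both strands. At least 1 match was found in 12 of the 40 member promoters (30.0%), against 744 of all 32851 promoters (2.26%). The 12 genes were Mcm3, Mcm5, Mcm6, Mcm7, Cdc6, Cdt1, Gins3, Pola1, Pold1, Rfc3, Lig1 and Uhrf1. The sequence CCAAT, on either strand, was in 23 of the 40 member promoters (57.5%), against 37.4% of all promoters. Of the promoters with the most E2F-type matches, those of 4 helicase subunits follow, 5′ to 3′ on the gene's own strand, with the matches in capitals. Mcm6 held 3 matches and the others 2 each, as did Rfc3. The first 2 matches of Mcm6 and both of Mcm5 overlap and appear as 1 run.
Mcm6, chr1:128359656-128359955, minus strand: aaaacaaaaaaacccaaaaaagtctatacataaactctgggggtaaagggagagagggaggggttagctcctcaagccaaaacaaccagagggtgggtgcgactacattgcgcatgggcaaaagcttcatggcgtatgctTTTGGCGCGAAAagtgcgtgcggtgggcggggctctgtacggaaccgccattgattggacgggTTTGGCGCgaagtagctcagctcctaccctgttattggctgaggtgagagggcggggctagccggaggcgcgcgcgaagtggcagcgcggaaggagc
Mcm3, chr1:20820263-20820562, minus strand: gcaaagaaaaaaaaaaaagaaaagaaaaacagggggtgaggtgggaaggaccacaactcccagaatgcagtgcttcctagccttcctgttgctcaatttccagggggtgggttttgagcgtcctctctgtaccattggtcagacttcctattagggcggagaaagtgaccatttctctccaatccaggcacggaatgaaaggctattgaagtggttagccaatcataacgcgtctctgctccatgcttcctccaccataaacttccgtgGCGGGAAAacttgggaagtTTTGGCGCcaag
Mcm5, chr8:75109259-75109558, plus strand: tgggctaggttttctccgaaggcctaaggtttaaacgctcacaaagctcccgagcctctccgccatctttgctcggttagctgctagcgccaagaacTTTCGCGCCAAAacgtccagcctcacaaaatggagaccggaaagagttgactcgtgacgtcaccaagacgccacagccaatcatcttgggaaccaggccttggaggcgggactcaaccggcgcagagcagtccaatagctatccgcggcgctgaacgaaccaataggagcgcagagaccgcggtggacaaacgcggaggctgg
Mcm7, chr5:138171834-138172133, minus strand, 1 of 2 promoters listed: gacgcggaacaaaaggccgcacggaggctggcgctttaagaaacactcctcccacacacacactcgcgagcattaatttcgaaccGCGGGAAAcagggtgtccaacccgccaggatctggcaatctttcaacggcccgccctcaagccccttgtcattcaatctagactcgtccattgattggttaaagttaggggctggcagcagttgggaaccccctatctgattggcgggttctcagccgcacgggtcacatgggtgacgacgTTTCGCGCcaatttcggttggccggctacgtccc
A match shows the letters only, not that a factor binds there. The median log2 difference with DEX was -0.36 over the 12 members with a match (range -0.50 to 0.099) and -0.32 over the 21 members with a promoter but no match (range -0.79 to -0.0095).

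Values are normalized log2 signals, the log2 of the processed signal of the Agilent software minus the 75th percentile of its array. A pair of values in the text gives slide 1 and then slide 2, and a difference is in log2 units. The 75th percentile itself was 476 and 1439 with shRNA1, 522 and 1665 with shRNA2, 966 and 2061 in control cells with DEX, and 1003 and 1923 without DEX, so the slide 1 arrays were dimmer and those of the shRNAs the dimmest. Between 59.5% and 62.9% of spots were well above background on each array. Zfp36l2 had levels of 4.09 and 3.92 with shRNA1, 4.12 and 3.70 with shRNA2, 5.55 and 5.42 in control cells with DEX, and 3.49 and 3.85 without DEX, so it was lower with both shRNAs than in control cells with DEX, and also lower without DEX. Of 12 erythroid markers 11 were on the array, and all 11 (Gata1, Klf1 and Hba-a1 among them) were well above background on all 8 arrays. All 39 members tested were well above background on all 8 arrays and none was saturated.

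Across the 8 arrays, the replication genes were set apart more by slide than by group. The median member lay 0.83 below its own 8-array mean on slide 1 and 0.57 above it on slide 2 with shRNA1 (-0.83 and 0.57), at -1.05 and 0.50 with shRNA2, at -0.32 and 0.46 in control cells with DEX, and at 0.20 and 0.59 without DEX. On slide 2 the groups thus spanned 0.46 to 0.59, while on slide 1 they spanned -1.05 to 0.20. Over all genes tested the medians stayed between -0.14 and 0.24 on every array. Slide 1 was the lower of the replicates in 37 of 39 members with shRNA1, in 37 with shRNA2, in 38 in control cells with DEX and in 34 without DEX. The median gap between slide 1 and slide 2 was -1.44 with shRNA1, -1.52 with shRNA2, -0.82 in control cells with DEX and -0.38 without DEX, against 0.25, 0.23, 0.093 and 0.13 over all genes. The shRNA2 array of slide 1 was the lowest of the 8 arrays for 26 members and the shRNA1 array of slide 1 for 11, whereas 18.6% and 18% of all genes were lowest there. The slide 1 arrays of the shRNAs were also the dimmest of the 8, and the part of that in the result was not tested.

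**Figure D1:**
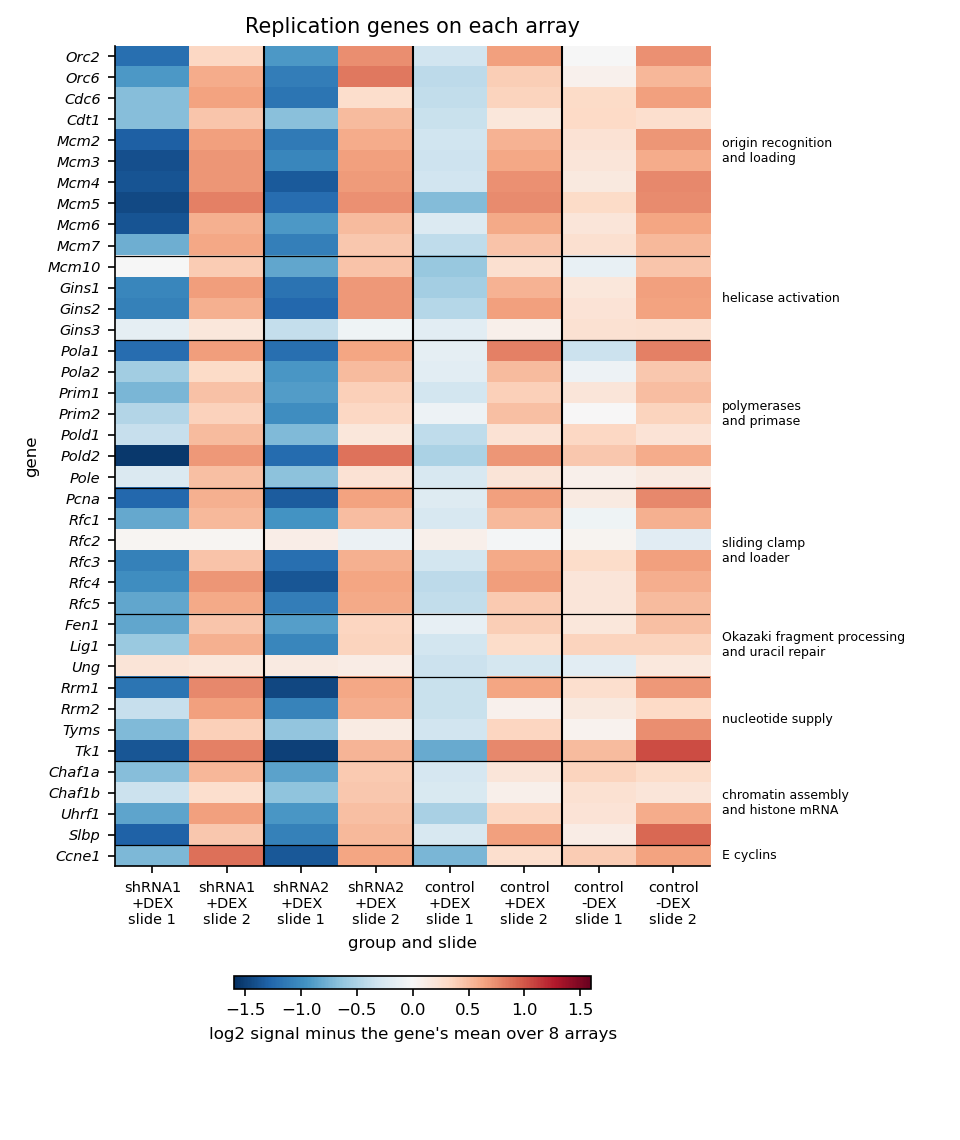
Each row is 1 of the 39 replication genes tested, each column 1 array, and the colour is the normalized log2 signal minus the gene's mean over the 8 arrays. Slide 1 is blue in nearly every row for both shRNA groups, paler for control cells with DEX and near white or pale red for control cells without DEX, while slide 2 is red in all 4 groups. Rfc2 and Ung do not follow the pattern.

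No replication gene passed the test in any comparison. At an adjusted p under 0.05 over all genes, limma called 0 members for DEX (0% of all genes), 0 for shRNA1 (0%), 0 for shRNA2 (0%) and 0 for shRNA1 against shRNA2 (0%). The smallest adjusted p of a member was 0.92, for shRNA1. With the slide as a block, limma called 0 members in each comparison again, where it called 44 genes for DEX (0.23% of all genes), 0 for shRNA1, 1 for shRNA2 (0.00523%) and 0 between the shRNAs. At an unadjusted p under 0.05 the fit without the block named 0 members in all 4 comparisons, where 3.11%, 2.09%, 1.25% and 2.38% of all genes lay under that value. With the block 1 member, Ung with shRNA1, was higher at that unadjusted p, and 0 were in the other comparisons, against 4.07% of all genes for DEX, 13.4% for shRNA1, 2.82% for shRNA2 and 8.66% between the shRNAs. In the other direction there were 0 members in each, against 5.48%, 4.45%, 2.88% and 2.35%. No member was at least 2-fold higher on both slides, where 1.68%, 3.04%, 0.758% and 1.54% of all genes were, and none was 2-fold lower, where 2.05%, 0.612%, 0.261% and 0.319% were. The standard error of a member's difference ran from 0.28 to 1.01 (median 0.69), and from 0.18 to 0.53 (median 0.35) with the block, so differences of the size seen here were not detectable with these arrays, and are given below as measurements. The sign of a difference also rested on the scaling: with each array scaled by its median instead, the median of all genes was -0.22 with shRNA1 and -0.23 with shRNA2, against 0.18 and 0.013 here, so medians relative to all genes are given too. The comparisons of DEX, shRNA1 and shRNA2 share the control arrays with DEX, so they are not independent of each other.

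With DEX, most replication genes measured lower in control cells, mainly on slide 1. Of the 39, 36 were lower and 3 higher (Pola1, Prim2 and Rfc2), with a median difference of -0.32 against -0.075 for all genes. The median minus that of all genes was -0.25, and it was -0.41 on slide 1 and -0.054 on slide 2. Differences beyond 0.5 in either direction were seen in 20 members on slide 1 and in 0 on slide 2. On both slides 29 members were lower (38.7% of all genes), 2 were higher (23.4%) and 8 had opposite signs (37.9%), but when each array was scaled by its median only 11 of the 39 were lower on slide 2, so this count rests on the scaling. In 8 members (Cdt1, Gins3, Lig1, Ung, Rrm2, Chaf1a, Chaf1b and Ccne1) both arrays with DEX lay below both arrays without it, as did 16.5% of all genes, and 0 members lay above in that way (10.4%). Scaled by the array median, 0 members lay below and 1, Rfc2, lay above. Leaving out 1 array sets 1 slide of its group against both slides of the other, so the result includes the gap between slides. The median minus that of all genes was then 0.19 without control with DEX replicate 1 and 0.011 without control without DEX replicate 2. It was -0.66 without control with DEX replicate 2. Within each slide, as above, it was -0.41 and -0.054.

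With shRNA1, members were lower on slide 1 and near the control level on slide 2. The median difference was -0.19 where all genes had 0.18, which gives -0.37 relative to all genes, -0.70 on slide 1 and -0.021 on slide 2. On slide 1, 33 of 39 members were lower, and on slide 2, 12. On both slides 12 members were lower (26.6% of all genes) and 6 higher (49.3%), the 6 being Mcm10, Gins3, Pold1, Pole, Ung and Ccne1, and 21 had opposite signs (24.1%). Scaled by the array median, 26 were lower on both slides, 0 higher and 13 opposite. Only 4 members (Mcm10, Ung, Rrm2 and Ccne1) lay above the median of all genes, which 50% of genes do by construction. Both arrays of shRNA1 lay above both control arrays for 1 member, Ung (18% of all genes), and below for 0 (7.56%), and with the array median as scale all 39 overlapped. Leaving out 1 array again set 1 slide of its group against both slides of the other, so the gap between slides is included. Without shRNA1 replicate 1 the median relative to all genes was then 0.46, and without control with DEX replicate 2 it was 0.079. Without shRNA1 replicate 2 it was -1.16.

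The second hairpin gave a like split by slide. With shRNA2, 37 members were lower and 2 higher (Cdt1 and Ung), with a median difference of -0.30 against 0.013 for all genes. Relative to all genes the median was -0.32, with -0.74 on slide 1 and 0.0032 on slide 2. Differences beyond 0.5 were seen in 29 members on slide 1 and in 1 on slide 2. On both slides 19 members were lower (25.4% of all genes) and 1, Ung, was higher (27%), and 19 had opposite signs (47.6%). Scaled by the array median, 7 were lower on both slides, 0 higher and 32 opposite. Ung was also the 1 member with both shRNA2 arrays above both control arrays (7.26% of all genes), and 0 members had both below (8.19%); with the array median as scale all 39 overlapped. With 1 array left out, which again mixes the slides, the median relative to all genes was 0.51 without shRNA2 replicate 1. Without control with DEX replicate 2 it was 0.085, and without shRNA2 replicate 2 it was -1.22. Slide by slide, 32 members were lower than control with both shRNAs on slide 1, against 9 on slide 2 (Mcm4, Mcm6, Pcna, Pola1, Pola2, Prim2, Rfc1, Rfc3 and Slbp), where 16 were higher with both. Scaled by the array median, 39 were lower with both shRNAs on slide 1, and on slide 2 7 were lower and 13 higher with both.

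**Figure D2:**
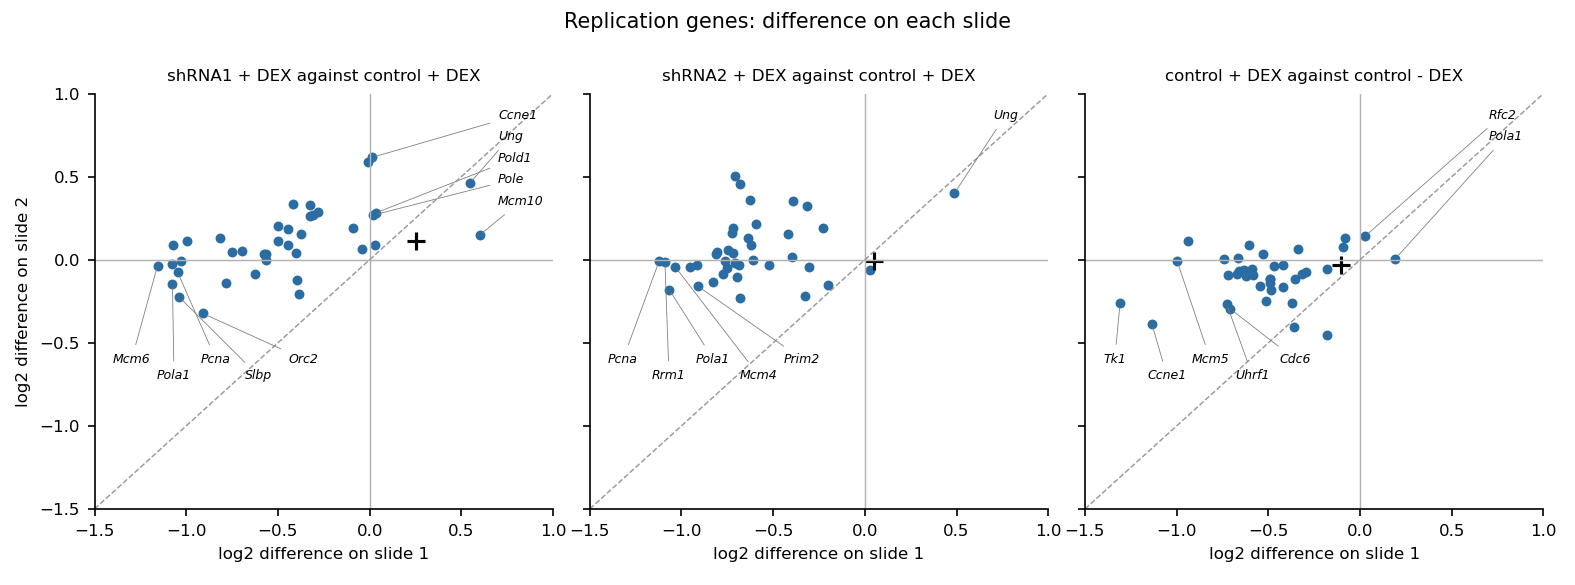
Each point is 1 of the 39 replication genes, with its log2 difference on slide 1 on the horizontal axis and on slide 2 on the vertical axis, in a panel for shRNA1 against control with DEX, shRNA2 against control with DEX, and control with DEX against control without DEX. The black cross is the median of all genes, the dashed line marks equal differences, and the named genes are those with the largest differences of the same sign on both slides. Points spread from -1.16 to 0.60, from -1.12 to 0.49 and from -1.31 to 0.19 along slide 1 and stay within -0.45 and 0.62 along slide 2.

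Markers of other cell types varied across the same arrays. All 14 granulocyte markers, among them Elane, Mpo and Camp, measured higher with shRNA1 (median difference 1.62) and with shRNA2 (2.41, with 4.14 on slide 1 and 0.78 on slide 2). Their summed level, in units of the array's 75th percentile, was 298 and 204 with shRNA1, 681 and 134 with shRNA2, 115 and 108 in control cells with DEX, and 116 and 224 without DEX. The shRNA2 array of slide 1, lowest for most replication genes, was thus the highest for granulocyte markers. The 9 of 12 monocyte markers tested (Mrc1, C1qa and C1qc were not well above background on both arrays of any group) summed to 9.17 and 3.44 with shRNA1, 14.6 and 2.09 with shRNA2, 3.19 and 1.48 in control cells with DEX, and 4.03 and 5.60 without DEX. The 11 erythroid markers had a median difference of 0.49 with shRNA1, 0.015 with shRNA2 and -0.41 with DEX, and the 6 early progenitor markers -0.64, -0.14 and 0.79. In the same order 10, 6 and 1 of the erythroid markers were higher, and 1, 2 and 4 of the early progenitor markers. The early progenitor markers were split, with differences from -1.43 to 2.38 with DEX and from -0.78 to 1.15 with shRNA2. Megakaryocyte markers were higher in 7 of 8 with each shRNA, with slide medians of 1.07 and 0.18 with shRNA1 and 2.35 and -0.25 with shRNA2. Mast cell and basophil markers were higher in 3 of 5 with shRNA1 and 4 of 5 with shRNA2, lymphoid markers in 2 of 2 with each, and hepatocyte markers in 2 of 5 with each. With DEX the median was -0.66 for megakaryocyte, -1.19 for mast cell and basophil, -0.087 for lymphoid and 0.96 for hepatocyte markers. The part of these cells in the replication result was not tested.

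Origin recognition and helicase loading was the largest role, with 10 members. With DEX 10 of 10 were lower (median -0.33, range -0.50 to -0.19), with shRNA1 9 were lower (-0.40, range -0.62 to 0.0023) and with shRNA2 9 were lower (-0.35, range -0.54 to 0.0052). By slide the medians were -0.54 and -0.071 with DEX, -0.83 and 0.10 with shRNA1, and -0.69 and 0.0060 with shRNA2. Mcm6, a helicase subunit whose probe lies at chromosome 1, 130228237 to 130228178 (build mm9, as the array file gives it), had levels of 4.35 and 6.30 with shRNA1, 4.82 and 6.23 with shRNA2, 5.51 and 6.33 in control cells with DEX, and 5.93 and 6.37 without DEX. Slide 2 spanned 6.23 to 6.37, and on slide 1 both shRNA arrays were below both control arrays. The difference was -0.60 with shRNA1 (slides -1.16 and -0.035), -0.40 with shRNA2 and -0.23 with DEX. Mcm4, another subunit, had levels of 2.95 and 5.03 with shRNA1, 2.99 and 5.02 with shRNA2, 4.02 and 5.06 in control cells with DEX, and 4.49 and 5.10 without DEX, and differed by -0.55 with shRNA1 and -0.54 with shRNA2. Again only slide 1 separated the groups.

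Mcm5 and Cdc6 had the largest differences with DEX in this role. Mcm5, the helicase subunit whose promoter is printed above, had levels of 2.50 and 4.75 with shRNA1, 2.72 and 4.67 with shRNA2, 3.25 and 4.70 in control cells with DEX, and 4.25 and 4.70 without DEX. Its slide 2 values were nearly equal in the 4 groups, and on slide 1 the order was control without DEX, control with DEX, shRNA2 and shRNA1. The difference with DEX was -0.50 (SE 0.98, limma adjusted p = 1.00; slides -1.0 and -0.0064). Cdc6, the loading ATPase, had levels of -1.62 and -0.29 with shRNA1, -2.11 and -0.66 with shRNA2, -1.34 and -0.58 in control cells with DEX, and -0.63 and -0.29 without DEX. In control cells the array with DEX was the lower one on each slide, but the groups overlapped across slides. It differed by -0.50 with DEX (slides -0.71 and -0.30). A second Cdc6 probe differed by -0.086 with DEX (0.0068 and -0.18), so the probes disagreed on slide 1. With shRNA1 Cdc6 differed by 0.0023 (slides -0.28 and 0.29) and with shRNA2 by -0.43. The second probe gave 0.25 with shRNA1 (slides 0.012 and 0.49) and -0.80 with shRNA2 (slides -1.52 and -0.080).

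Orc2, a subunit of the origin recognition complex, had levels of -0.36 and 1.18 with shRNA1, -0.064 and 1.59 with shRNA2, 0.55 and 1.51 in control cells with DEX, and 0.85 and 1.58 without DEX. The shRNA1 arrays were the lowest on each slide. Its difference was -0.62 with shRNA1 (slides -0.91 and -0.32), -0.27 with shRNA2 (slides -0.62 and 0.088) and -0.19 with DEX. Cdt1, which brings the helicase to the origin, differed by -0.38 with DEX (slides -0.67 and -0.086). With shRNA1 Cdt1 differed by -0.031 (slides -0.33 and 0.27) and with shRNA2 by 0.0052 (slides -0.31 and 0.32). Mcm2, Mcm3, Mcm7 and Orc6 completed the role. Their differences were between -0.36 and -0.25 with DEX, between -0.49 and -0.11 with shRNA1, and between -0.38 and -0.11 with shRNA2. A second Mcm3 probe gave -0.62 and -0.0028 on the slides with DEX and -1.03 and 0.0079 with shRNA1, close to the probe used.

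Of the 4 genes that switch the helicase on, Mcm10 differed in sign between the comparisons. Mcm10, a scaffold of the replication fork, had levels of 3.34 and 3.76 with shRNA1, 2.52 and 3.80 with shRNA2, 2.74 and 3.61 in control cells with DEX, and 3.23 and 3.80 without DEX. The slide 1 array of shRNA1 was the highest of slide 1, and slide 2 values spanned 3.61 to 3.80. It differed by 0.37 with shRNA1 (SE 0.55, slides 0.60 and 0.15), -0.019 with shRNA2 and -0.34 with DEX; scaled by the median of each array, the shRNA1 difference was -0.024. The GINS subunits Gins1 and Gins2 differed by -0.41 and -0.33 with DEX, -0.19 and -0.35 with shRNA1, and -0.26 and -0.39 with shRNA2. Gins3, the third subunit on the list, varied less and differed by -0.29 with DEX, 0.060 with shRNA1 and -0.18 with shRNA2. In control cells its arrays with DEX, at 3.49 and 3.75, lay below those without DEX, at 3.91 and 3.91, but they overlapped when scaled by the array median.

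Among the 7 polymerase and primase genes, 5 were lower with DEX (median -0.14), 5 with shRNA1 (-0.26) and 7 with shRNA2 (-0.30). Pola1, the catalytic subunit of polymerase alpha, had levels of -0.38 and 1.51 with shRNA1, -0.37 and 1.47 with shRNA2, 0.70 and 1.65 in control cells with DEX, and 0.51 and 1.65 without DEX. On slide 1 both shRNA arrays lay below both control arrays, while slide 2 spanned 1.47 to 1.65. The difference was -0.61 with shRNA1 (slides -1.08 and -0.15; SE 0.90), -0.62 with shRNA2 (slides -1.07 and -0.18) and 0.10 with DEX (slides 0.19 and 0.0063). Prim2, the large primase subunit, had levels of 1.69 and 2.53 with shRNA1, 1.17 and 2.49 with shRNA2, 2.09 and 2.65 in control cells with DEX, and 2.17 and 2.52 without DEX. It differed by -0.53 with shRNA2 (slides -0.91 and -0.16), -0.26 with shRNA1 and 0.023 with DEX. The partners Pola2 and Prim1 differed by -0.30 and -0.18 with shRNA1, -0.38 and -0.30 with shRNA2, and -0.010 and -0.30 with DEX.

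The catalytic subunits of the leading and lagging strand polymerases were of positive sign with shRNA1, unlike the primase genes. Pold1, the catalytic subunit of polymerase delta, had levels of 3.07 and 3.95 with shRNA1, 2.73 and 3.62 with shRNA2, 3.04 and 3.67 in control cells with DEX, and 3.78 and 3.66 without DEX. It differed by 0.16 with shRNA1 (slides 0.035 and 0.28), -0.17 with shRNA2 (slides -0.30 and -0.045) and -0.37 with DEX. Pole, the catalytic subunit of polymerase epsilon, differed by 0.14, -0.19 and -0.14 in the same order. Scaled by the median of each array, the shRNA1 differences turned to -0.24 for Pold1 and -0.25 for Pole. Pold2, the accessory subunit of polymerase delta, had levels of -0.57 and 1.66 with shRNA1, -0.27 and 1.83 with shRNA2, 0.46 and 1.67 in control cells with DEX, and 1.39 and 1.56 without DEX, and both shRNA arrays were the lowest of slide 1. It differed by -0.52 with shRNA1, -0.28 with shRNA2 and -0.41 with DEX, each with slide 1 at -0.72 or below.

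In the clamp and clamp loader group, Pcna varied and Rfc2 hardly did. Pcna, the sliding clamp, had levels of 3.59 and 5.41 with shRNA1, 3.51 and 5.48 with shRNA2, 4.63 and 5.49 in control cells with DEX, and 4.99 and 5.61 without DEX. Its slide 2 values spanned 5.41 to 5.61, and on slide 1 both shRNA arrays were more than 1 below control cells with DEX. The difference was -0.56 with shRNA1 (slides -1.05 and -0.076), -0.56 with shRNA2 (slides -1.12 and -0.0064) and -0.24 with DEX. Rfc2, a small subunit of the clamp loader, had levels of 3.78 and 3.78 with shRNA1, 3.85 and 3.65 with shRNA2, 3.82 and 3.71 in control cells with DEX, and 3.79 and 3.57 without DEX. All 8 arrays lay between 3.57 and 3.85, and the differences were 0.013 with shRNA1, -0.016 with shRNA2 and 0.085 with DEX (SE 0.28). The other loader subunits Rfc1, Rfc3, Rfc4 and Rfc5 did not share this. They differed by -0.46 to -0.13 with shRNA1, -0.50 to -0.26 with shRNA2 and -0.34 to -0.12 with DEX. Scaled by the array median, Rfc2 differed by -0.38 with shRNA1 (slides -0.67 and -0.099), -0.26 with shRNA2 and 0.18 with DEX.

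With both shRNAs Ung measured higher, unlike most other members, under the 75th percentile scaling. It encodes uracil-DNA glycosylase, which removes uracil from newly made DNA, and its probe lies at chromosome 5, 114588731 to 114588790 (build mm9). Ung had levels of 4.34 and 4.31 with shRNA1, 4.28 and 4.25 with shRNA2, 3.79 and 3.85 in control cells with DEX, and 3.97 and 4.30 without DEX. The 4 shRNA arrays lay above both control arrays with DEX, and the slides nearly coincided within each shRNA group. It differed by 0.51 with shRNA1, a fold of 1.42 (SE 0.28, limma adjusted p = 0.923; slides 0.55 and 0.46), and by 0.44 with shRNA2, a fold of 1.36 (slides 0.49 and 0.40). Scaled by the array median, Ung differed by 0.11 with shRNA1 (slides -0.082 and 0.30) and 0.20 with shRNA2 (slides -0.094 and 0.49), and its arrays overlapped those of control cells with DEX. Relative to the median of all genes its difference was 0.33 with shRNA1 and 0.43 with shRNA2. With the slide as a block the limma p for shRNA1 was 0.0446 before adjustment, the only member under 0.05 in that fit (13.4% of all genes were under it and higher), and 0.27 after it. With DEX it differed by -0.32 (slides -0.18 and -0.45). Fen1 and Lig1, which trim and join Okazaki fragments, differed by -0.32 and -0.018 with shRNA1, -0.40 and -0.34 with shRNA2, and -0.20 and -0.36 with DEX.

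The nucleotide supply genes held the largest difference with DEX. Tk1, the thymidine kinase of the salvage pathway, whose mRNA is high in S phase, had levels of 1.50 and 3.68 with shRNA1, 1.38 and 3.42 with shRNA2, 2.06 and 3.65 in control cells with DEX, and 3.37 and 3.91 without DEX. The control array with DEX on slide 1 lay 1.31 below its counterpart without DEX (a difference of -1.31), and on slide 2 the gap was -0.26. The mean difference with DEX was -0.79, a fold of 0.58 (SE 1.01, limma adjusted p = 1.00; with the slide as a block, SE 0.42 and limma adjusted p = 0.728). Without control with DEX replicate 1 the difference was 0.0053, but this sets slide 2 with DEX against both slides without it. Tk1 differed by -0.26 with shRNA1 and -0.46 with shRNA2. Rrm1, the large subunit of ribonucleotide reductase, had levels of 2.64 and 4.58 with shRNA1, 2.36 and 4.43 with shRNA2, 3.45 and 4.45 in control cells with DEX, and 4.08 and 4.51 without DEX. Slide 2 spanned 4.43 to 4.58, and its difference was -0.55 with shRNA2 (slides -1.09 and -0.011), -0.34 with shRNA1 and -0.35 with DEX. Rrm2, the small subunit, differed by 0.29 with shRNA1, -0.10 with shRNA2 and -0.38 with DEX. Tyms, which makes thymidylate, differed by -0.18 with shRNA1, -0.27 with shRNA2 and -0.38 with DEX, and with DEX its slides were close (slides -0.36 and -0.41).

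Chromatin genes and Ccne1 complete the set. Slbp, which binds the stem-loop of histone mRNAs, had levels of -0.17 and 1.56 with shRNA1, 0.042 and 1.65 with shRNA2, 0.87 and 1.79 in control cells with DEX, and 1.24 and 2.05 without DEX. Arrays of both shRNAs lay below control cells with DEX on each slide. It differed by -0.63 with shRNA1 (slides -1.04 and -0.22), -0.48 with shRNA2 (slides -0.83 and -0.14) and -0.32 with DEX. A second Slbp probe gave -0.34 with shRNA1 (slides -0.53 and -0.15) and -0.18 with shRNA2 (slides -0.46 and 0.10), so with shRNA2 the probes disagreed on slide 2. Uhrf1, which guides maintenance methylation of new DNA, had levels of 2.82 and 4.32 with shRNA1, 2.73 and 4.15 with shRNA2, 3.15 and 3.99 in control cells with DEX, and 3.88 and 4.26 without DEX. Its difference was -0.50 with DEX (slides -0.73 and -0.26), 0.0001 with shRNA1 (slides -0.33 and 0.33) and -0.13 with shRNA2 (slides -0.42 and 0.15). A second probe gave -0.80, 0.23 and 0.13 in the same order. The chromatin assembly subunits Chaf1a and Chaf1b differed by -0.36 and -0.30 with DEX, and by no more than 0.19 in size with either shRNA. Their slides had opposite signs with each shRNA, with shRNA2 -0.59 and 0.22 for Chaf1a and -0.39 and 0.35 for Chaf1b. Scaled by the array median, Chaf1a and Chaf1b differed by -0.44 and -0.35 with shRNA1, and by -0.44 and -0.26 with shRNA2.

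Ccne1, the cyclin that activates Cdk2 at the start of S phase, had levels of 3.04 and 4.64 with shRNA1, 2.40 and 4.39 with shRNA2, 3.03 and 4.03 in control cells with DEX, and 4.16 and 4.41 without DEX. Both arrays with DEX in control cells lay below both arrays without it, as for 16.5% of all genes, but they overlapped when scaled by the array median. On slide 2 both shRNA arrays lay above the control array with DEX. The difference with DEX was -0.76, a fold of 0.59 (SE 0.82; slides -1.14 and -0.39), and a second probe gave -0.59. With shRNA1 it was 0.31 (slides 0.013 and 0.62; -0.084 when scaled by the array median), and with shRNA2 -0.13 (slides -0.62 and 0.36). The second probe gave 0.27 with shRNA1 and 0.23 with shRNA2 (slides -0.0017 and 0.45), so the probes disagreed in sign with shRNA2.

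**Figure D3:**
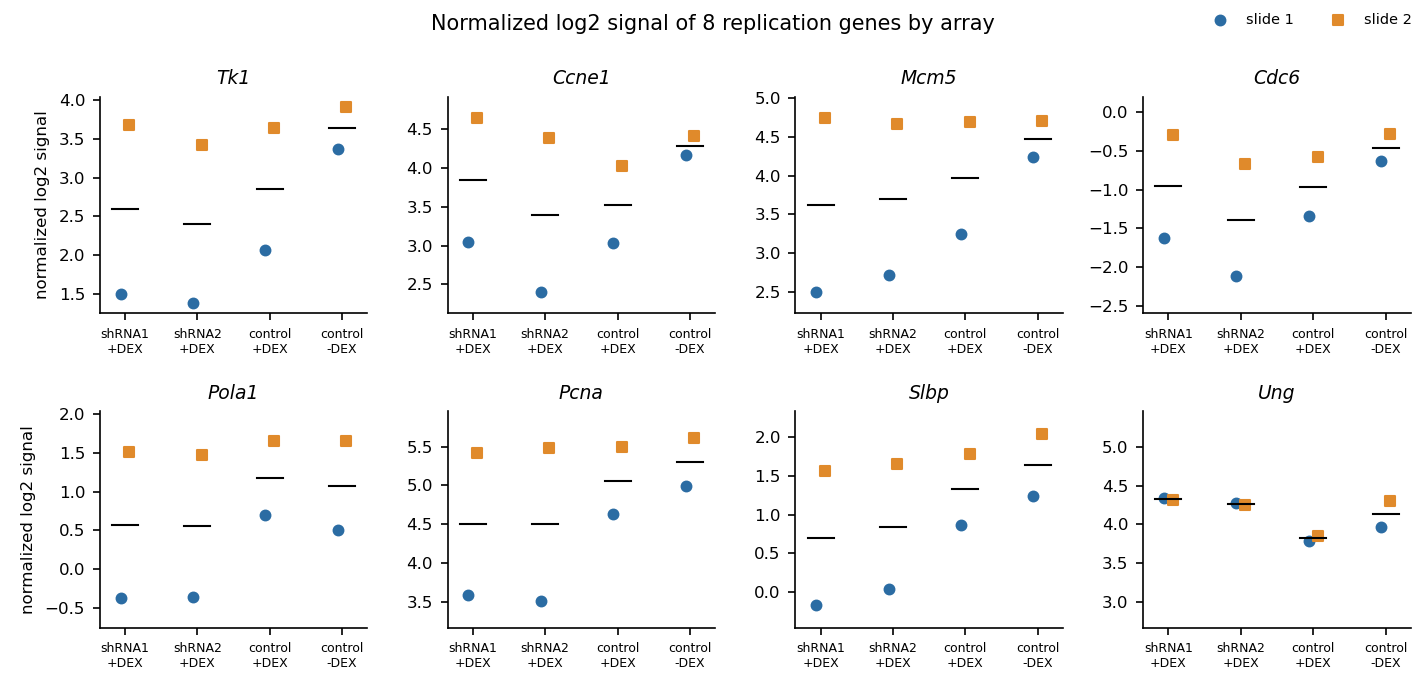
Normalized log2 signal of 8 replication genes on each array, with circles for slide 1, squares for slide 2 and bars for the mean of each group of 2 arrays. All panels span the same number of log2 units. For 7 of the genes slide 2 lies above slide 1 in every group, by most in the shRNA groups, while the shRNA arrays of Ung nearly coincide and, under this scaling but not the array-median one, lie above both control arrays with DEX.

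The hairpins were also set against each other. With shRNA1 against shRNA2, 29 members were higher and 10 lower, with a median of 0.080 against 0.13 for all genes (-0.048 relative to all genes, 0.017 on slide 1 and -0.053 on slide 2). On both slides 18 members were higher (45.8% of all genes) and 4 lower (22.2%), the 4 being Orc2, Cdt1, Pold2 and Slbp, and 17 had opposite signs (32%). Scaled by the array median, 3 were higher on both slides, 12 lower and 24 opposite, so the balance of directions turned. The largest positive differences of the same sign on both slides were 0.45 for Ccne1, 0.43 for Cdc6, 0.39 for Rrm2, 0.34 for Pole and 0.33 for Pold1. Second probes gave 0.042 for Ccne1 (slides 0.22 and -0.13) and 1.05 for Cdc6 (slides 1.53 and 0.57). The negative ones were -0.35 for Orc2, -0.24 for Pold2, -0.15 for Slbp and -0.036 for Cdt1. Ung, at 4.34 and 4.31 with shRNA1 and 4.28 and 4.25 with shRNA2, was the 1 member whose arrays did not overlap (12.3% of all genes were higher in that way), by a difference of 0.061, and 0 were lower in that way (4.57%); with the array median as scale the arrays of all 39 overlapped. The smallest limma adjusted p over the members was 1.00 without the block and 0.62 with it, so none of these differences passed the test.

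Genes of the same pathway outside the list showed the same split by slide. Of 50 other replication genes, among them Cdc45, the Rpa subunits and Dnmt1, limma called 0 in each comparison. With shRNA1 36 were lower and 14 higher, with a median of -0.35 relative to all genes (-0.68 and -0.073 on the slides). With shRNA2 41 were lower and 9 higher (-0.28; -0.62 and -0.0054), and with DEX 43 and 7 (-0.14; -0.29 and 0.011). These counts rest on the scaling, though the medians relative to all genes do not. Scaling by the array median lowers every shRNA1 difference by more than the 0.31 of Pole3. Only Recql4, Cdc7 and Chtf18 would then stay higher with shRNA1. That scaling also lowers every shRNA2 difference and raises every DEX difference. The members with the smallest p were Recql4, a helicase of replication initiation, Cdc7, the kinase that fires origins, and the mismatch repair gene Msh6 with shRNA1, at 0.71 (slides 0.93 and 0.50), 0.77 (1.04 and 0.51) and -0.38 (-0.67 and -0.093). With shRNA2 they included the histone chaperone Asf1a at -0.93 (-1.42 and -0.44) and Recql4 at 0.39 (0.53 and 0.26). With DEX they were Recql4 at -0.46, Msh6 at 0.40 and the clamp loader gene Chtf18 at -0.44. Recql4 and Cdc7 were higher with shRNA1 on both slides, against the median of their list.

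The 28 G2 and mitosis genes tested also had 0 calls by limma. With shRNA1 19 were lower and 9 higher, with a median of -0.27 relative to all genes (-0.62 and 0.078 on the slides). With shRNA2 28 of 28 were lower (-0.40; -0.93 and 0.036), and with DEX 28 of 28 (-0.20; -0.33 and -0.12). With shRNA1 against shRNA2 27 of 28 were higher, with a median of 0.17 relative to all genes (0.33 and -0.0075), where the 39 members had -0.048. Mki67, Nusap1 and Ncapd2 then differed by 0.85, 0.56 and 0.51. Mki67, a marker of cycling cells, differed by 0.31 with shRNA1 (0.15 and 0.46), -0.54 with shRNA2 (-0.93 and -0.16) and -0.42 with DEX (-0.61 and -0.24). Scaling by the array median lowers every shRNA1 difference by more than this 0.31, the highest of the 28. All 28 would then be lower with shRNA1, so the 9 higher, Mki67 among them, rest on the scaling. With DEX that scaling raises every difference, and Bub1b (-0.022) and Ttk (-0.028) would turn higher. Between the hairpins it lowers every difference by more than the 0.14 of Cenpa, so the 27 of 28 rests on it too. The 28 of 28 with shRNA2 and the medians relative to all genes do not. The spindle gene Nusap1 differed by -0.53 with shRNA2 and -0.54 with DEX, and Ube2c, a ubiquitin-conjugating enzyme of mitotic exit, by -0.60 with DEX. With shRNA1 the kinase gene Ttk differed by -0.57 and the checkpoint gene Mad2l1 by -0.46, and with shRNA2 the condensin gene Ncapd2 by -0.36. The E2F-type motifs above were in promoters of 2 of 25 genes of this list (8.0%), of 15 of 39 other replication genes (38.5%) and of 12 of 33 member genes (36.4%), against 2.6% of all genes.

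**Figure D4:**
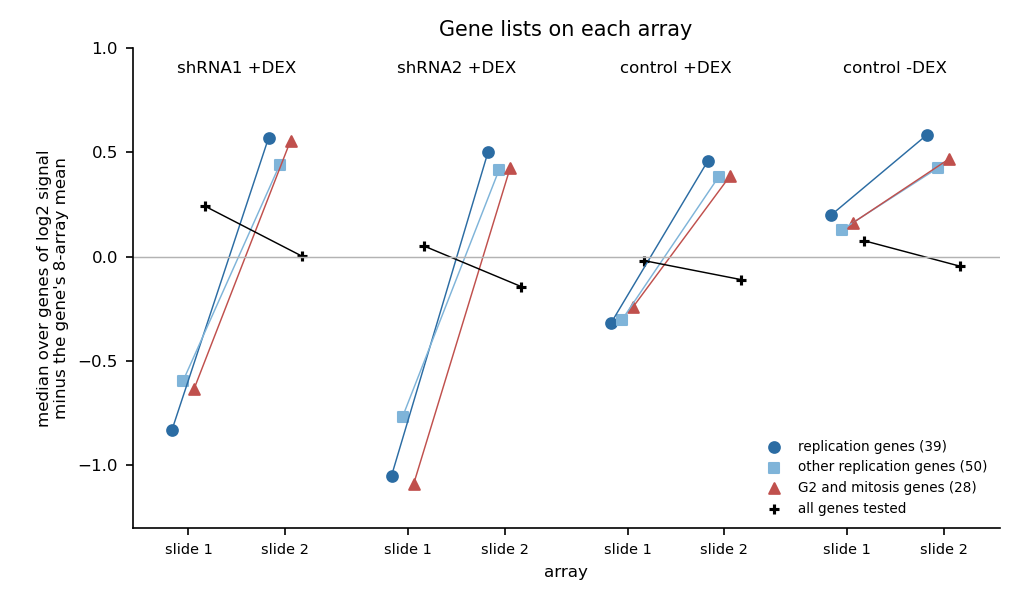
Median over the genes of a list of the log2 signal minus each gene's 8-array mean, on each array, with the slides of a group joined by a line. The replication genes, the other replication genes and the G2 and mitosis genes all lie between 0.38 and 0.59 on slide 2, and on slide 1 run from -1.09 and -0.60 in the shRNA groups to 0.20 at most in control cells without DEX. All genes tested stay between -0.14 and 0.24.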

How the data were processed

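Each of the 8 arrays was a 1-colour Agilent array of 44397 spots, 1377 of them controls, carrying 39429 probes. Per the file headers, the deposited intensity values are processed signals of Agilent Feature Extraction 10.1.1.1, background-corrected by that software and not scaled between arrays. The submitters also deposited a table of log2 values, which ranked probes as the scanner signals did and was used as an alternative. Its array medians lay between 6.65 and 6.66, and how it was scaled is not given in the sources used here.

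Here the log2 of the processed signal minus the array's 75th percentile was taken, control and outlier spots were left out and spots of a probe averaged. Probes entered the test where 1 group or more had both arrays well above background, and each gene was represented by its brightest such probe on average (3900 genes had several probes). Names came from accessions through RefSeq tables for 26293 probes and from the file for 12695. All 4 groups were fitted in limma 3.58.1 (R 4.3.3; lmFit, eBayes; 4 residual degrees of freedom) with Benjamini-Hochberg adjustment over 19130 genes and a threshold of 0.05. The script was tested on simulated arrays without a slide effect. Recovery of known changes was required only at a spread below that of these arrays.

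Replicate number and slide coincide. Deviations of same-numbered arrays from their group means correlated at 0.43 to 0.86 in every pair of groups, so slide was also fitted as a block (3 residual degrees of freedom), and differences are given within each slide. The number of arrays limits the precision. Background by normexp (offset 50, 122 local backgrounds replaced), quantile and median scaling, no filter on dim probes, the mean of a gene's probes and leaving out each array were tried, and each slide alone was added after seeing the data.

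The members and gene lists were chosen with earlier results of these data known. Genes named with full values are, per comparison, up to 5 highest and 5 lowest members with the same sign on both slides, and from other lists the 3 with the smallest p, of which 1 is not reported here. Other members are given by role, and second probes where they bear on a named gene. Members under the array-median scaling were counted slide by slide after seeing the data. Probe positions are those of the array design (mm9), in the probe's own direction; exon and UTR annotation was not used here.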

Additional observations from a re-analysis of the deposited data

Results flagged for a closer look

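Pold1, the catalytic subunit of polymerase delta, was higher than control with DEX on both slides with shRNA1 and lower on both with shRNA2. The difference was 0.16 with shRNA1 (0.035 on slide 1 and 0.28 on slide 2) and -0.17 with shRNA2 (-0.30 and -0.045). The difference between the hairpins was itself tested and did not pass: 0.33 for shRNA1 minus shRNA2, with a limma adjusted p of 1.00, and of 0.71 with the slide as a block. With each array scaled by its median the hairpins no longer opposed each other: the slides were -0.59 and 0.12 with shRNA1 and -0.89 and 0.044 with shRNA2.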

How the results depend on the processing

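The count of members called was 0 in each of the 4 comparisons under every setting run: normexp background, quantile and median scaling, the submitters' values, no filter on dim probes, the mean of a gene's probes, the slide (replicate) as a block and each array left out. The member median relative to all genes stayed below 0 for DEX, shRNA1 and shRNA2 with normexp, quantile scaling, the submitters' values, no filter and the mean of probes. Median scaling and the replicate block (-0.25, -0.37 and -0.32, as without it) cannot move this median by construction. A single slide holds 1 array a group and gives no test. With the block the count over all genes for DEX ran from 0 to 154 between settings, against 44 reported. Leaving out 1 array of a compared group sets 1 slide against both, so the values that follow include the gap between slides. Leaving out 1 array gave medians between -0.66 and 0.19 for DEX and between -1.16 and 0.46 for shRNA1. They lay between -1.22 and 0.51 for shRNA2 and between -0.89 and 0.78 for shRNA1 minus shRNA2. For shRNA1 minus shRNA2 the median was 0.0064 with quantile scaling, 0.014 without the filter and 0.017 on slide 1 alone, against -0.048. With median scaling the shRNA1 difference turned to -0.084 for Ccne1, -0.024 for Mcm10, -0.24 for Pold1 and -0.25 for Pole; all genes then had a median of -0.22, against 0.18. Of 480 values of named members 44 changed sign, 40 of them when an array was left out, and the mean difference of Ung kept its sign with both shRNAs in the 15 settings, though with median scaling its slide 1 difference was -0.082 with shRNA1 and -0.094 with shRNA2. The ranges of the log2 difference over left-out arrays, which mix the slides in this way, are given for the members that turned. With DEX they were Mcm5 -1.23 to 0.22, Pola1 -0.47 to 0.67, Rfc2 -0.027 to 0.20 and Tk1 -1.58 to 0.0053. With shRNA1 they were Ccne1 -0.49 to 1.11, Mcm10 -0.061 to 0.81, Mcm6 -1.57 to 0.38, Orc2 -1.39 to 0.15, Pcna -1.48 to 0.35, Pola1 -1.55 to 0.33, Pold1 -0.28 to 0.60, Pole -0.21 to 0.50 and Slbp -1.50 to 0.23. With shRNA2 they were Mcm4 -1.55 to 0.48, Pcna -1.55 to 0.42, Pola1 -1.54 to 0.30, Prim2 -1.19 to 0.12 and Rrm1 -1.59 to 0.49. For shRNA1 minus shRNA2 they were Ccne1 -0.55 to 1.44, Cdc6 -0.29 to 1.15, Cdt1 -0.62 to 0.55, Orc2 -1.18 to 0.48, Pold1 -0.11 to 0.78, Pold2 -1.36 to 0.88, Pole -0.10 to 0.78, Rrm2 -0.43 to 1.21 and Slbp -1.02 to 0.72. The cause was not tested. With 2 arrays a group, and replicate gaps above most group differences, small changes of replication genes were not detectable.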
